A study of Mus musculus with 6 samples.

Results

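The oxidative phosphorylation genes of splenic B cells were read in 6 RNA-seq libraries, 3 of unstimulated cells and 3 of cells cultured for 4 h with CL097 at 5 µg/ml. CL097 is an imidazoquinoline that activates TLR7, an endosomal receptor of single-stranded RNA. Every library came from male TLR9-/- mice with an intact TLR7, on the MRL/lpr (MRL.Faslpr) background, which carries the lpr defect of Fas and is a model of lupus. Per the labels, the cells of both conditions were bead-purified from the spleens of 3 mice aged 5 to 7 weeks. The absence of TLR9 was thus shared by the unstimulated and the CL097 group, and libraries of TLR9-sufficient cells were not analysed here. The genes were chosen by symbol alone: those that begin with Nduf, Uqcr, Cox4 to Cox8 or Atp5, those that begin with Sdh followed by a, b, c or d, and Cycs and Cyc1. This gave 96 of the 23420 symbols in the files, and 89 of them, among 11844 genes in all, reached 0.5 CPM (read counts scaled to a common library total) in at least 3 of the 6 libraries and were tested.

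The respiratory chain lies in the inner mitochondrial membrane. Complex I takes electrons from NADH and complex II from succinate, and both pass them to coenzyme Q. Complex III hands them to the small protein cytochrome c, and complex IV uses them to reduce oxygen. Complexes I, III and IV pump protons, and complex V, the ATP synthase, lets the protons back to make ATP. The members are nuclear genes, and the 13 subunits encoded in mitochondrial DNA were not analysed here. Assembly factors, such as the Ndufaf proteins of complex I and the Sdhaf proteins of complex II, help build a complex but are not found in the finished enzyme. Resting B cells that are activated enlarge and raise their respiration before they divide.

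By complex, the 96 genes fell into 36 subunits of complex I, 4 of complex II, 9 of complex III, the single gene Cycs for somatic cytochrome c, 20 of complex IV and 15 of complex V, with 7 Ndufaf factors, 2 Sdhaf factors and the 2 genes Atp5s and Atp5sl. Ndufa4 and Ndufa4l2 were placed with complex IV, where the Ndufa4 protein works despite its name. Levels are deposited log2 CPM turned back to CPM, with the SD over the 3 libraries of a group. The log2 fold change (log2FC) is CL097 minus unstimulated within a replicate number, averaged over the 3 numbers. Its standard error (SE) is that of the fit named next, with variances moderated over all tested genes. The SE is thus not the spread of the 3 differences of a gene. A gene was called at an adjusted p under 0.05 (limma with the replicate number as a block, Benjamini-Hochberg over all tested genes) and an absolute log2FC over 0.5. "Rose" and "fell" are used of called genes only.

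Some properties of the libraries bear on the values. The files hold quantile-normalized values, so each change is measured against the rest of a library, and the sequencing depth is unknown. The cells carried B cell transcripts, with 8 of 8 B cell markers tested, whose summed level was 6399 to 7289 CPM unstimulated and 2715 to 3211 CPM with CL097, and 6 of the 8 fell. Summed erythroid markers were 206 and 212 CPM in the 2 libraries of number 1 but 4167 to 7514 CPM in the other 4, with 4 of 6 tested markers called higher. Summed monocyte and macrophage markers went from 156 to 479 CPM in unstimulated to 99.2 to 248 CPM in CL097 libraries, and those of neutrophils from 26.2 to 65.6 to 17.2 to 52.1 CPM. T cell markers summed to 48.0 to 71.5 CPM and then 50.7 to 93.1 CPM. Most of this was Lck alone, at 43.4 to 67.2 CPM and then 45.1 to 88.3 CPM. Cd3e, Cd3d and Cd3g did not pass the filter, and of the 5 T cell markers tested 2 were called higher and 1 lower. The part of these cell types in the results below was not tested. In a bulk sample, fewer cells of a type and less RNA per cell cannot be told apart.

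After CL097, 26 of the 89 tested members were called, or 29.2%, against 51.7% of all 11844 tested genes. Of these, 19 rose (21.3%, against 25.9% of all genes) and 7 fell (7.87%, against 25.8%). The median absolute log2FC was 0.31 over the members and 0.61 over all genes tested, and the signed medians were 0.17 and 0.00. The share of members called and the size of their changes lay below those of all genes, and their calls lay mostly on the higher side. A further 26 members had an adjusted p under 0.05 but a change inside the 0.5 threshold, 21 of them positive and 5 negative; by the adjusted p alone, 66.6% of all genes passed. Summed over the 89 members, the level was 7541, 6526 and 6654 CPM in the unstimulated libraries of numbers 1, 2 and 3, and 8314, 7657 and 7823 CPM in the CL097 libraries. The sum was higher with CL097 in each number, and the lowest CL097 library lay just above the highest unstimulated one. The means, 6907 ± 553 and 7931 ± 341 CPM (SD, n = 3), were 14.8% apart. Much of this difference came from Atp5b alone, at 883 ± 89.9 CPM unstimulated and 1437 ± 60.8 CPM with CL097. The sum therefore does not describe the members in general.

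**Figure D1:**
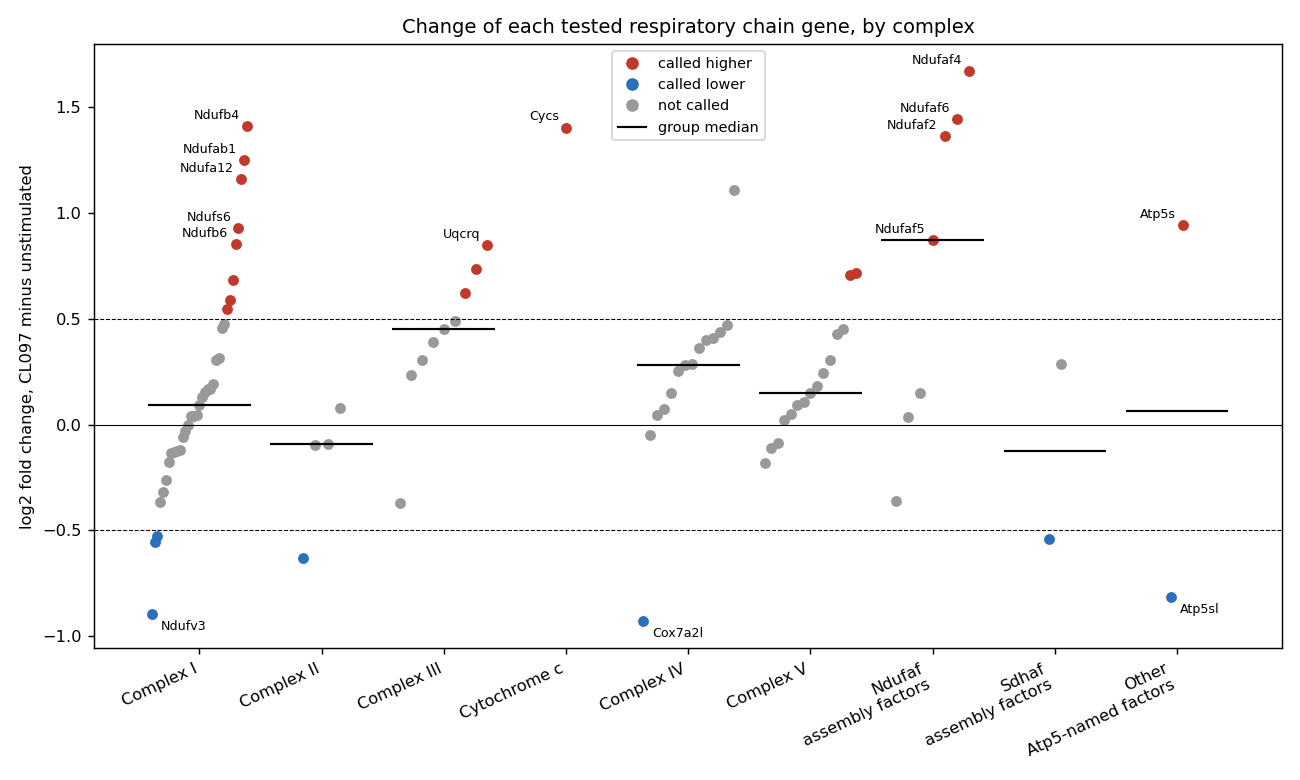
Log2FC (CL097 minus unstimulated, vertical axis) of each of the 89 tested members, 1 point per gene, in columns by complex or assembly group. Red points were called higher, blue points lower and grey points not called, black lines are group medians, and dashed lines mark the fold threshold of 0.5; complex III and the Ndufaf factors sit highest, with medians of 0.45 and 0.87.

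The groups differed in where their medians lay. The 7 Ndufaf factors had the highest median of any group with more than 1 gene, 0.87, followed by complex III at 0.45, complex IV at 0.28, complex V at 0.15, complex I at 0.09 and complex II at -0.09. Computed within each replicate number, the medians were 1.02, 0.68 and 0.92 for the Ndufaf factors and 0.42, 0.43 and 0.51 for complex III. They were 0.18, 0.27 and 0.28 for complex IV, 0.04, 0.16 and 0.18 for complex V, 0.07, 0.10 and 0.11 for complex I, and 0.00, -0.06 and -0.22 for complex II. Among groups of more than 1 gene, the Ndufaf factors and complex III thus kept the first and second place in each number, while complexes I and V overlapped. These are descriptions of lists of unequal size, and no test between complexes was made.

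The promoter sequences of 4 members are shown first, because they include the 2 members with the largest rises among those that hold the core letters of a site for the nuclear respiratory factor NRF1, a transcription factor known to act on respiratory chain promoters. Ndufaf4 and Cycs rose, Cox6a1 holds the same letters and was not called, and Cox7a2l had the largest fall. Each line gives the 250 bases before the RefSeq transcription start on GRCm38.p6, 5′ to 3′ on the gene's strand, with matches of the searched motifs in capitals. The windows are chr4:24897833-24898082 (plus strand) for Ndufaf4, chr6:50566570-50566819 (minus) for Cycs, chr5:115348959-115349208 (minus) for Cox6a1 and chr17:83514334-83514583 (minus) for Cox7a2l.
Ndufaf4: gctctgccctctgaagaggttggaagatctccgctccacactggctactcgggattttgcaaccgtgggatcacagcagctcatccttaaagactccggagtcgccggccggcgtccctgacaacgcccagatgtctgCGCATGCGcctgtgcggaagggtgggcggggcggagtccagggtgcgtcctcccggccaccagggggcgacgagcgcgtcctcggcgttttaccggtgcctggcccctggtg
Cycs: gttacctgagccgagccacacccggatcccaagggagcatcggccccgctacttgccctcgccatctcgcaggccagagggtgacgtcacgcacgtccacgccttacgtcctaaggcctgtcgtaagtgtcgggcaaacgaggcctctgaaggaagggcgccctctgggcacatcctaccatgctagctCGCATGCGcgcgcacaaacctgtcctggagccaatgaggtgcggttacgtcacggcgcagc
Cox6a1: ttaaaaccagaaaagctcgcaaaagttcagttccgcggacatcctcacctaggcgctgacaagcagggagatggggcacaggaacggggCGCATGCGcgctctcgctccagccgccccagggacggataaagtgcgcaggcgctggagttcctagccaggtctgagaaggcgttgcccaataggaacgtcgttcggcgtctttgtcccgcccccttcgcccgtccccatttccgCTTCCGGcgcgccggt
Cox7a2l: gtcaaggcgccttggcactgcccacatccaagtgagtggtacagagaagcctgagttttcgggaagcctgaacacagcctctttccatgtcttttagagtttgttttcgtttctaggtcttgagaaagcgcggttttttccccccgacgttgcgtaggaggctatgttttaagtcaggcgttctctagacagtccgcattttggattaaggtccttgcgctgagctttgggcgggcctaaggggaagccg

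The capitals in Ndufaf4, Cycs and the first run of Cox6a1 are the 8 letters CGCATGCG, the core of the NRF1 site, which begin 112, 61 and 161 bases before the start. The second run in Cox6a1, 16 bases before the start, is CCGGAAG read on the other strand, the core of a site for ETS factors such as GABP. The window shown for Cox7a2l held none of the searched motifs. It lies inside the span annotated for the gene, 83501918 to 83517330 on the minus strand. The RefSeq start used may thus be an internal one, and bases before the annotated 5′ end are not shown. A match is a description of letters, not evidence that a factor binds there.

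Assembly factors of complex I held the largest rise. Ndufaf4 helps join the quinone-binding module of complex I and is on chromosome 4 (24898083 to 24905001, plus strand, 3 annotated exons, GRCm38). It was read at 21.4, 20.3 and 20.8 CPM in the unstimulated libraries and at 70.5, 68.1 and 60.5 CPM with CL097. The lowest CL097 library was far above the highest unstimulated one, and the unstimulated libraries were nearly equal. The log2FC was 1.67 (SE 0.09, adjusted p = 5.79e-06), or 3.18-fold. Ndufaf6, needed for early complex I assembly, was at 2.98, 2.76 and 2.43 CPM and rose to 8.67, 6.70 and 6.90 CPM, a log2FC of 1.44 (SE 0.18, adjusted p = 0.000378). The 2 groups did not overlap.

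Ndufaf2 was at 5.32, 3.56 and 4.93 CPM in the unstimulated and 12.5, 10.9 and 11.6 CPM in the CL097 libraries, with a log2FC of 1.36 (SE 0.16, adjusted p = 0.000273). Ndufaf2 is a paralog of the subunit Ndufa12, which takes its place late in assembly. Ndufa12 rose too, from 36.1, 29.5 and 25.5 CPM to 76.5, 64.6 and 61.1 CPM, a log2FC of 1.16 (SE 0.08, adjusted p = 2.12e-05). The fourth factor that rose was Ndufaf5, which hydroxylates a residue of the core subunit Ndufs7, with 5.72 ± 0.39 against 10.5 ± 1.27 CPM and a log2FC of 0.87 (SE 0.16, adjusted p = 0.00201).

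The other 3 Ndufaf factors were not called. Ndufaf1, which acts on the membrane arm, had a log2FC of 0.15 (SE 0.14), and Ndufaf7, a methyltransferase, of 0.04 (SE 0.14). Ndufaf3, the partner of Ndufaf4 in the same assembly intermediate, was at 8.76, 6.49 and 5.23 CPM and then 4.98, 5.78 and 4.90 CPM, with a log2FC of -0.36 (SE 0.20, adjusted p = 0.155) and overlapping groups. The Ndufaf factors together summed to 71.8 ± 2.80 CPM unstimulated and 135 ± 11.4 CPM in CL097 libraries, a gain of 87.7%, against 5.56% for the summed complex I subunits. Ndufaf4 alone gave most of this gain, from 20.9 ± 0.59 to 66.4 ± 5.25 CPM. The 10 other complex I assembly factors described below gained 16.9% in sum.

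Complex I itself had 35 tested subunits, of which 8 rose (22.9%, against 25.9% of all genes) and 3 fell (8.57%, against 25.8%). The nuclear core subunits carry the flavin, the iron-sulfur clusters and the quinone site, and of those described here only Ndufv2 was called. Ndufv2, a 2Fe-2S protein of the NADH-binding module, was at 71.3, 60.0 and 64.8 CPM unstimulated and 117, 96.6 and 101 CPM with CL097. All CL097 libraries were above all unstimulated ones, and the log2FC was 0.68 (SE 0.07, adjusted p = 0.000107). Its partner in that module, Ndufv1, which binds the flavin, had a log2FC of -0.13 (SE 0.08, adjusted p = 0.155). Ndufs1, the largest iron-sulfur subunit, was at 0.17 (SE 0.07, adjusted p = 0.0664).

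The core subunits of the quinone module described here did not share a sign. Ndufs3 had a log2FC of 0.31 (SE 0.08, adjusted p = 0.0120) and Ndufs7 of 0.13 (SE 0.11, adjusted p = 0.320). Ndufs8 was at -0.32 (SE 0.07, adjusted p = 0.00646). The changes of Ndufs3 and Ndufs8 passed the adjusted p but not the fold threshold.

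Of the 28 tested accessory subunits, which surround the core, 7 rose and 3 fell. The share that rose was just below the 25.9% of all genes, and 10.7% fell, against 25.8% of all genes. Ndufb4, of the membrane arm, was at 5.05, 3.19 and 4.42 CPM and rose to 11.6, 11.8 and 9.75 CPM, a log2FC of 1.41 (SE 0.20, adjusted p = 0.000627). The value is uncertain, because near-identical copies of Ndufb4 are annotated in the mouse genome. Ndufab1, the mitochondrial acyl carrier protein, which also serves fatty acid and lipoate synthesis, was at 8.83, 7.22 and 10.4 CPM and then 23.0, 20.0 and 19.4 CPM. The groups lay far apart, with a log2FC of 1.25 (SE 0.15, adjusted p = 0.000283). RefSeq names 1 pseudogene each of Ndufab1 and Ndufa12, so these values also depend on how shared reads were counted.

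The remaining accessory subunits that rose changed less. Ndufs6, a zinc-binding subunit, had a log2FC of 0.93 (SE 0.10, adjusted p = 0.000120) and Ndufb6 of 0.85 (SE 0.13, adjusted p = 0.000862). Ndufc2 was at 0.59 (SE 0.11, adjusted p = 0.00272), and Ndufc1 at 0.55 (SE 0.21, adjusted p = 0.0490), a call that the fit without the replicate block lost (adjusted p = 0.0633).

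The falls within complex I were those of Ndufv3, Ndufa13 and Ndufb11. Ndufv3, a small subunit of the NADH-binding module, was at 47.8, 38.8 and 30.1 CPM unstimulated and 21.02, 20.2 and 20.4 CPM with CL097. The unstimulated libraries were spread and the CL097 libraries nearly equal, with no overlap, and the log2FC was -0.89 (SE 0.13, adjusted p = 0.000808). Ndufa13, also known as GRIM-19, was at 40.1, 33.4 and 32.6 CPM and then 25.1, 21.8 and 25.3 CPM, with a log2FC of -0.55 (SE 0.10, adjusted p = 0.00259). Ndufb11, of the membrane arm, was nearest the threshold among called members, at -0.52 (SE 0.09, adjusted p = 0.00154), while Uqcr10 of complex III lay nearest outside it, at 0.49 (SE 0.09, adjusted p = 0.00185).

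**Figure D2:**
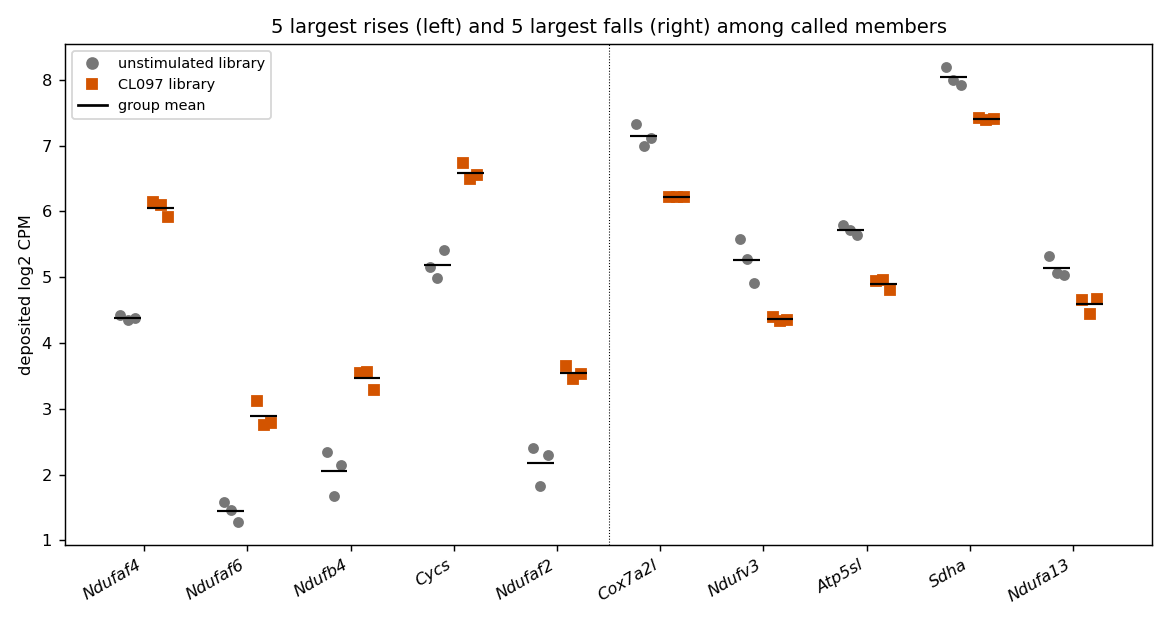
Deposited log2 CPM (vertical axis) in each library for the 5 called members with the largest rise and the 5 with the largest fall; grey circles are the 3 unstimulated libraries, orange squares the 3 CL097 libraries and black lines group means. The groups do not overlap for any of the 10 genes, which the choice of called genes with the largest changes makes likely. Ndufaf4 shows the widest gap between group means, 1.67 on the log2 scale.

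Complex II, which is also the citric acid cycle enzyme succinate dehydrogenase, had the lowest median of the 5 complexes, -0.09. Sdha, its flavoprotein, on chromosome 13 (74322254 to 74350280, minus strand, 15 annotated exons), was at 293, 254 and 243 CPM unstimulated and 172, 167 and 170 CPM in CL097 libraries. It was lower in each number, and the CL097 libraries differed by little, with a log2FC of -0.63 (SE 0.07, adjusted p = 0.000183), or 1.55-fold lower. The iron-sulfur subunit Sdhb was at -0.10 (SE 0.08), and the membrane anchors Sdhc and Sdhd at 0.08 (SE 0.09) and -0.09 (SE 0.08), none of them called. Sdhaf2, which helps attach the flavin to Sdha, fell from 78.7, 70.1 and 66.3 CPM to 47.7, 50.8 and 49.1 CPM (log2FC -0.54, SE 0.09, adjusted p = 0.00126). Sdhaf1, which serves the iron-sulfur clusters of Sdhb, was at 0.29 (SE 0.10, adjusted p = 0.0424), inside the fold threshold. The summed level of the 4 subunits was 470 ± 32.9 CPM and then 367 ± 17.8 CPM.

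In complex III, 8 of the 9 subunits were higher in each of the 3 numbers with an adjusted p under 0.05. Of all 11844 genes, 3979 had an adjusted p under 0.05 and a positive change. The fold threshold was passed on the higher side by 3 of the 9 subunits (33.3%, against 25.9% of all genes). Cyc1, the cytochrome c1 subunit that hands electrons to cytochrome c, was at 77.4, 76.4 and 75.2 CPM unstimulated and 131, 126 and 126 CPM with CL097. Both groups were tight and far apart, and the log2FC was 0.74 (SE 0.07, adjusted p = 5.71e-05). Uqcrfs1, the Rieske iron-sulfur protein, was at 82.7, 65.3 and 82.8 CPM and then 121, 115 and 118 CPM (log2FC 0.62, SE 0.08, adjusted p = 0.000459). Uqcrq, a small subunit that binds cytochrome b, rose with a log2FC of 0.85 (SE 0.08, adjusted p = 8.09e-05).

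The 2 large core proteins of complex III, Uqcrc1 and Uqcrc2, stayed inside the fold threshold, at 0.23 (SE 0.06, adjusted p = 0.0117) and 0.39 (SE 0.06, adjusted p = 0.000933). Uqcrh, the hinge protein near cytochrome c1, was the exception in sign, at -0.37 (SE 0.09, adjusted p = 0.0110), and its value is uncertain because RefSeq names 2 pseudogenes of it. The summed level of complex III was 779 ± 66.7 CPM unstimulated and 974 ± 52.5 CPM in CL097 libraries, 25.1% higher.

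Cycs, the electron carrier between complexes III and IV and also a trigger of apoptosis when it leaves mitochondria, is on chromosome 6 (50562563 to 50566538, minus strand, 3 annotated exons). It was at 35.5, 31.7 and 42.8 CPM in the unstimulated libraries and 106, 89.6 and 93.4 CPM with CL097. Every CL097 library had more than any unstimulated library, with differences within the numbers of 1.58, 1.498 and 1.13 on the log2 scale. The log2FC was 1.40 (SE 0.10, adjusted p = 2.43e-05), or 2.64-fold, the largest among the 24 subunits and carriers that were followed singly. For complex IV these are the regulatory subunits Cox4i1, Cox5a and Cox5b, not its core. Of these 24, 6 rose (Ndufv2, Uqcrfs1, Cyc1, Cycs, Atp5b and Atp5g1), 1 fell (Sdha) and 17 were not called. Over all genes, 25.9% rose and 25.8% fell.

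**Figure D3:**
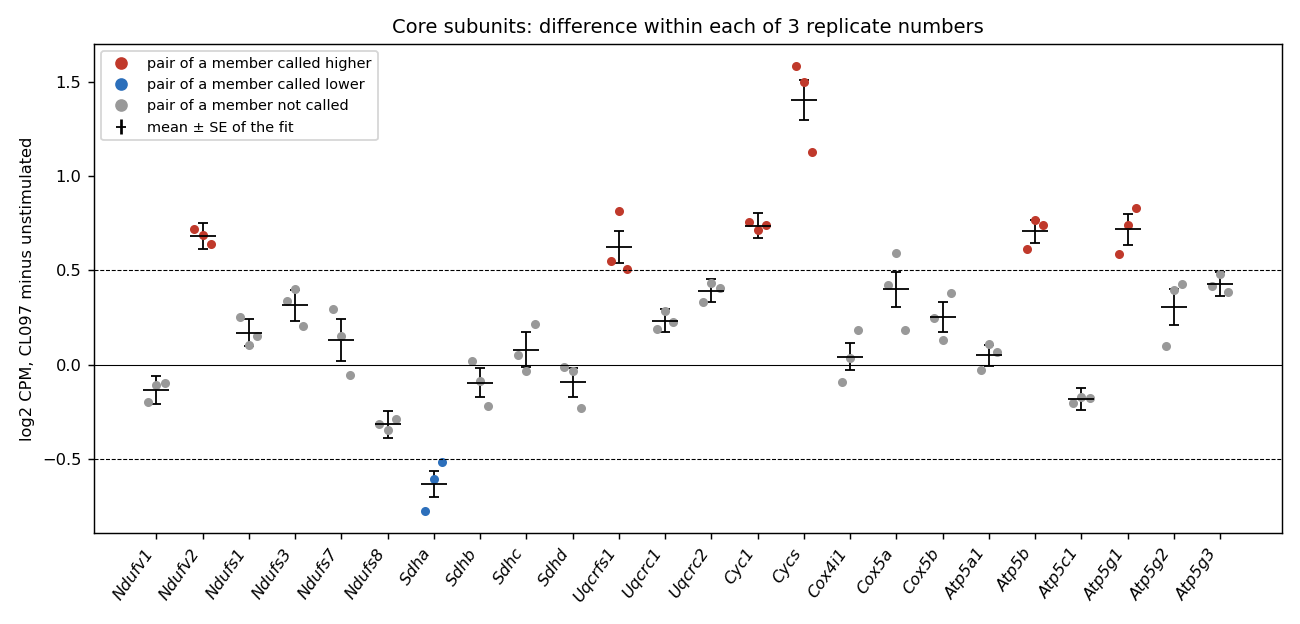
Difference in log2 CPM between the CL097 and the unstimulated library of each replicate number (vertical axis, 3 points per gene) for the 24 subunits and carriers followed singly. For complex IV these are regulatory subunits. Black bars are the mean ± SE of the fit and dashed lines the fold threshold of 0.5. Cycs is highest at 1.40, Sdha is lowest at -0.63, and the 3 points of Cyc1 and Ndufv2 nearly coincide.

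Complex IV, cytochrome c oxidase, had 14 tested subunits and no call on the higher side, against 25.9% of all genes. Still, 7 of the 14 had an adjusted p under 0.05 and a positive change, from 0.25 for Cox5b to 0.47 for Cox7c, all inside the fold threshold. At any fold, 3979 of all 11844 genes had such an adjusted p and a positive change. Of its nuclear regulatory subunits, Cox5a was at 0.40 (SE 0.09, adjusted p = 0.00683) and Cox5b at 0.25 (SE 0.08, adjusted p = 0.0276). Cox4i1, the highest of the complex per kilobase of exon, was at 0.04 (SE 0.07, adjusted p = 0.610). Ndufa4 was at 0.07 (SE 0.07, adjusted p = 0.384).

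The only complex IV gene called was Cox7a2l, whose product joins complexes III and IV into a supercomplex. The gene is on chromosome 17 (83501918 to 83517330, minus strand, 5 annotated exons). It was at 160, 128 and 139 CPM unstimulated and 74.6, 74.4 and 74.2 CPM in CL097 libraries. The 3 CL097 values were almost the same and well below every unstimulated value, with a log2FC of -0.93 (SE 0.08, adjusted p = 5.36e-05), or 1.90-fold lower. Its paralog Cox7a2, the usual isoform at that place in complex IV, was at 49.9, 46.1 and 42.2 CPM and then 56.8, 55.3 and 56.0 CPM (log2FC 0.29, SE 0.08, adjusted p = 0.0189). The log2 ratio of Cox7a2l over Cox7a2, taken within each library, went from 1.62 ± 0.13 to 0.41 ± 0.02 (SD, n = 3) and was lower in 3 of 3 numbers.

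The tissue-specific isoforms of complex IV were low or listed at a floor value. Cox7a1 and Cox8b, known from heart and muscle, and Cox7b2 and Cox8c, known from testis, did not pass the filter, and Cox7b2 and Cox8c were listed at -5.05 log2 CPM, the value shared by genes that do not vary, in all 6 libraries. Cox6a2 and Cox6b2 passed it narrowly, at 0.48 ± 0.15 and 0.38 ± 0.17 CPM unstimulated against 0.62 ± 0.11 and 1.03 ± 0.72 CPM with CL097, and were not called. Cox4i2, the isoform of Cox4i1 known from lung and low oxygen, was at 0.028, 0.080 and 0.029 CPM unstimulated and 0.595, 0.260 and 0.545 CPM in CL097 libraries, which do not overlap, with the unstimulated values near the floor. It lay just outside the filter, with 2 libraries over it, and was not tested. Ndufa4l2 and the complex I subunit Ndufs5 complete the 7 members that failed the filter; Ndufs5 was listed at -5.05 in all libraries, and RefSeq names 1 pseudogene of it.

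Complex V had 15 tested subunits, of which 2 rose (13.3%, against 25.9% of all genes) and none fell (25.8% of all genes). Atp5b, the catalytic beta subunit, on chromosome 10 (128083273 to 128090391, plus strand, 10 annotated exons), was at 987, 828 and 835 CPM unstimulated and 1507, 1408 and 1396 CPM with CL097. It rose in each number, with a log2FC of 0.71 (SE 0.06, adjusted p = 4.24e-05). Its partner in the catalytic ring, Atp5a1, was at 866 ± 58.8 CPM unstimulated and 895 ± 19.8 CPM with CL097, and its log2FC was 0.05 (SE 0.06, adjusted p = 0.472). Atp5c1, the rotating gamma subunit, was at -0.18 (SE 0.06, adjusted p = 0.0272). Atp5b alone gave most of the gain of the complex, whose summed level was 2939 ± 253 CPM and then 3640 ± 130 CPM.

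The genes Atp5g1, Atp5g2 and Atp5g3 encode the same mature c subunit of the proton-driven ring with different import sequences. Atp5g1 was at 56.6, 44.2 and 42.6 CPM and rose to 84.9, 73.7 and 75.7 CPM (log2FC 0.72, SE 0.08, adjusted p = 0.000204). Atp5g3 was at 0.43 (SE 0.06, adjusted p = 0.000768) and Atp5g2 at 0.31 (SE 0.09, adjusted p = 0.0229), both inside the fold threshold. The log2 ratio of Atp5g1 over Atp5g2 within a library went from 0.01 ± 0.09 to 0.42 ± 0.15, with gains of 0.49, 0.34 and 0.40 in the 3 numbers. Of the summed CPM of the 3 genes, Atp5g1 held 20.6% to 23.5% in unstimulated and 25.5% to 26.9% in CL097 libraries, and Atp5g3 54.0% to 59.6% and then 53.2% to 55.2%. Per kilobase the share of Atp5g1 was far smaller, 3.70% to 4.35% and then 4.81% to 5.15%. The length used joins all annotated exons of a gene, 4912 bases for Atp5g1 against 731 for Atp5g2 and 724 for Atp5g3. The Atp5g1 transcript present may be shorter, so its share per kilobase is uncertain.

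Atp5s and Atp5sl begin with Atp5 but are not subunits of the enzyme. Atp5s, a coupling factor, was at 2.26, 2.63 and 2.23 CPM and then 5.37, 3.59 and 4.88 CPM (log2FC 0.94, SE 0.24, adjusted p = 0.0111). Atp5sl, named Dmac2 in the annotation and known from assembly of the membrane arm of complex I, fell from 55.5, 52.5 and 49.6 CPM to 30.8, 31.0 and 27.8 CPM. Its groups were far apart, with a log2FC of -0.81 (SE 0.08, adjusted p = 0.000115).

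Levels between genes can be set side by side only per length. In unstimulated libraries Atp5b was highest, at 461 CPM per kilobase of exon, followed by Cox4i1 at 327 and Atp5a1 at 298 CPM per kilobase. On this measure the assembly factors were far lower, with 5.74 CPM per kilobase for Ndufaf4 and 2.52 for Ndufaf6. Each length joins all annotated exons of a gene and may exceed that of the transcript present. This makes levels such as that of Ndufaf4, with 3632 joined bases, uncertain. Across 88 members with an annotated length, the log2 of the mean level per kilobase and the log2FC had a Pearson r of -0.308 and a Spearman rho of -0.236, a description over genes that share the same 6 libraries.

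Promoter letters were compared over windows of 250 bases before and 50 bases after the start, on both strands. RefSeq gave such a window for 75 of the 89 tested members. The NRF1 core CGCATGCG, which reads the same on both strands, was in 12 of the 75 (16%), against 2.07% of 27025 genes with a window. The GABP core CCGGAAG was in 25.3% of the members and 9.93% of all genes, the YY1 core AAGATGGC in 14.7% and 3.19%, and the E-box CACGTG, the letters MYC and its relatives read, in 9.33% and 8.09%. Among tested genes, of which 8861 of 11844 had a window, 4.67% held the NRF1 core, 20.9% the GABP core, 5.56% the YY1 core and 12.2% the E-box. Against these, the members' share of the GABP core was only a little higher and that of the E-box lower. Matches of different motifs were counted separately and may share letters.

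Within the members, the motifs did not follow the calls in one way. The NRF1 core was in 3 of 16 members called higher (Cycs, Ndufaf4 and Ndufaf5), in 0 of 7 called lower and in 9 of 52 not called. The GABP core was in 1 of 16 called higher, 1 of 7 called lower and 17 of 52 not called. These shares are given without a test.

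Other genes of the pathway were followed by lists. Beyond the Ndufaf factors, 10 complex I assembly factors were tested, of which 2 rose and 1 fell (30% called, against 51.7% of all genes): Ecsit at 0.68 and Timmdc1 at 0.63, and Tmem126b at -0.99 on the log2 scale. Of 6 complex III assembly factors, 1 rose and 1 fell, or 33.3% called. These were Uqcc2, listed in the files as Mnf1, at 1.32 (SE 0.14, adjusted p = 0.000145), and Uqcc3, listed as AI462493, at -1.28 (SE 0.13, adjusted p = 0.000117). Both are known to act on newly made cytochrome b.

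Complex IV, with no subunit called higher, had 9 of 20 tested assembly factors called higher (45.0%, against 25.9% of all genes). Of the 20, 1 was called lower (5.0%, against 25.8%). Together 50% were called, against 51.7% of all genes. Sco1, which brings copper to the enzyme, was at 14.1 ± 1.37 CPM and then 38.5 ± 1.74 CPM (log2FC 1.46, SE 0.11, adjusted p = 2.54e-05). Cox10, a heme A synthesis enzyme, was at 0.95 and Coa7, listed as Selrc1, at 0.80, while Surf1, a heme A insertion factor, fell by 0.75 on the log2 scale. The 5 ATP synthase factors had 2 that rose, Tmem70 at 0.90 and Atpaf2 at 0.59 (40.0%, against 25.9% of all genes), and none that fell.

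Of 13 tested genes of coenzyme Q synthesis 5 rose and 2 fell, or 53.8% called, a share near the 51.7% of all genes. The largest changes were those of Coq4 at 1.58 (SE 0.14), Pdss1, which makes the isoprenoid tail, at 1.39 (SE 0.17) and Coq10a at -1.22 (SE 0.18). Of 7 other enzymes that feed electrons to coenzyme Q, 2 rose and 1 fell, or 42.9% called. Prodh, of proline breakdown, was at 1.41 and Dhodh, of pyrimidine synthesis, at 1.06, while Etfdh, of fatty acid oxidation, was at -0.56.

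Of 21 regulators of mitochondrial biogenesis and mitochondrial DNA expression, 9 rose and 3 fell, or 57.1% called, against 51.7% of all genes. Myc, a growth factor-induced transcription factor, was at 243 ± 22.0 CPM and then 1620 ± 120 CPM (log2FC 2.74, SE 0.08, adjusted p = 1.07e-06). The PGC-1 family of coactivators did not move together: Pprc1 was at 1.67 (SE 0.07), Ppargc1b at 1.59 (SE 0.20) and Ppargc1a, the member known from muscle and liver, at -1.21 (SE 0.31). Tfam, which packages and transcribes mitochondrial DNA, was at 111 ± 7.53 CPM and then 74.4 ± 5.30 CPM, with a log2FC of -0.58 (SE 0.08, adjusted p = 0.000450).

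**Figure D4:**
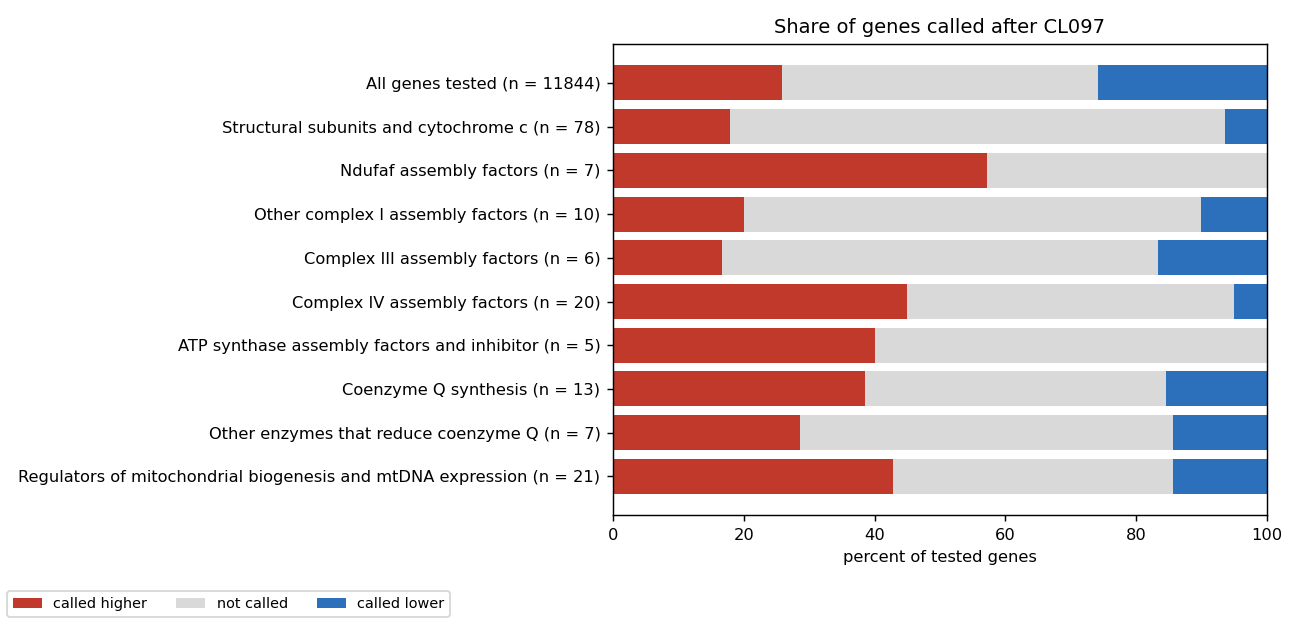
Percent of tested genes (horizontal axis) called higher (red), not called (grey) and called lower (blue) after CL097, for all genes, for the structural subunits with cytochrome c, for the Ndufaf factors and for 7 lists of the pathway; n is the number tested. The subunits show the largest grey share, with 24.4% called against 51.7% of all genes. Of the Ndufaf factors 57.1% were called, all higher, against 25.9% of all genes called higher.

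The comparison of subunits with assembly factors rests on unequal numbers. Of 78 tested subunits with cytochrome c, 14 rose (17.9%) and 5 fell (6.41%), or 24.4% called. Of the 7 Ndufaf factors 4 rose, or 57.1%, and none fell. Over all genes, 25.9% rose and 25.8% fell, or 51.7% called. All 26 called members had the same direction in the 3 numbers, which the call itself makes likely. Because erythroid markers were lowest in both libraries of number 1, the counts were also taken without that number: 24 members were called higher and 5 lower, against 19 and 7 with it. That count keeps only the numbers with high erythroid markers, so the part of erythroid RNA in the calls was not tested. Whether a number marks a separate mouse is not stated, so the p-values measure the spread between these libraries.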

How the data were processed

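Splenic B cells were negatively selected with beads against markers of other cells (Gr-1, CD11b, CD11c, CD43, CD4 and CD8), and stranded poly(A) libraries were made, per the methods of the study. The submitters' processing notes name Trim Galore 0.6.5, FastQC 0.11.7, STAR 2.6.1a, Subread 2.0.1 with featureCounts, limma and mm10. The authors counted reads per gene and deposited voom values with quantile normalization as log2 CPM, in 1 file per library. For the counting, annotation and strand setting were not given in the sources used here, so reads of overlapping antisense genes cannot be told apart. Read counts were not recovered, the depth per library is unknown, and no counting interval is given. Between 10906 and 10997 genes per library reached 1 CPM. A log2 value of -5.05 was shared by 5485 genes in all libraries, so a value there is not a measured zero.

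From these values, genes with a log2 CPM of -1 or more in at least 3 of 6 libraries (11844) were fitted in limma 3.58.1 (R 4.3.3). Group and replicate number were terms, variances were moderated with a trend, and the Benjamini-Hochberg adjustment was used. The p-values are two-sided and come from moderated t-statistics. These add prior degrees of freedom, drawn from the variances of all tested genes, to the 2 residual ones. Deviations from the group means correlated at 0.568, 0.326 and 0.458 between libraries of the same number over 11844 genes, all over the limit of 0.1, so the numbers were taken as pairs; over the 89 members alone they were 0.290, 0.424 and -0.293. Of 17935 non-constant genes, 2655 to 3108 had the same value in both libraries of a number, against 347 to 396 in libraries of different numbers and group; genes near the floor carried an additive shift per number, as for Cox8b, at -5.07 in both libraries of number 1 and -4.96 in both of number 2. Its origin is not stated. It leaves differences within a number as they were, but enters the levels per library, the SD and these correlations. Coordinates (from 1) and exon lengths are from GENCODE M21 basic (GRCm38), which matched 95 of 96 members; promoters are from RefSeq. Alternatives were the fit without the block, each number left out, other filters, log2(CPM + 1), median centring, cyclic loess, no variance trend, robust variances and no fold threshold. Named were the core subunits with the regulatory subunits of complex IV, assembly factors, isoform sets and the 5 largest rises and falls. Also named were the members nearest the fold threshold and up to 3 called genes per pathway list. Other members named were chosen after their values were seen. The members and lists were chosen with earlier results of these data known. The result of 1 member is not reported here.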

Additional observations from a re-analysis of the deposited data

How the results depend on the processing

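Over 12 summary values and 12 alternatives, 139 of 144 combinations kept their value within the limits set. With the adjusted p alone and no fold threshold, 40 members were higher and 12 lower. The complex I median was 0.068 with cyclic loess. With each number left out in turn, members called higher ranged from 19 to 24 and lower from 5 to 7, the complex III median from 0.38 to 0.46, the complex IV median from 0.22 to 0.31, the complex V median from 0.11 (without number 2) to 0.21 (without number 1) and the complex II median from -0.14 (without number 1) to -0.03 (without number 3). Without the replicate block, so with the pairing ignored, 18 members were called higher and 7 lower, and Ndufc1 was the one call lost. No member reversed, and 21 of 26 called members kept their call under every alternative run. Ndufc1 also lost it with cyclic loess, log2(CPM + 1), no filter on low values, no variance trend and without number 2 (log2 fold change 0.25) or 3, and Atp5s without number 3 (adjusted p = 0.0652) or with no filter. Sdhaf2 (-0.45) and Ndufa13 (-0.49) passed below the fold threshold without number 1, and Ndufb11 (-0.45) without number 3. Members gained were Uqcr10, Ndufa5, Ndufb2, Cox6b2 and Atp5l without number 1, Uqcr11 and Atp5l without number 2, and Cox7c, Cox5a and Uqcrh (-0.51) without number 3. The causes were not tested. Leaving out a number leaves 1 residual degree of freedom. The stricter filter removed Cox6a2 and Cox6b2.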

Other observations

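Some subunits or assembly factors of these complexes are in the files under other symbols and so were not among the members. Atp5md, listed as Usmg5, and Atp5mpl, listed as 2010107E04Rik, are small proteins of the ATP synthase. Atp5md was at 32.2 ± 1.49 CPM unstimulated and 55.6 ± 5.76 CPM with CL097 (SD, n = 3), a log2FC of 0.78 (SE 0.09, adjusted p = 0.000234, limma). Atp5mpl was at 37.9 ± 3.00 and 55.2 ± 4.09 CPM, a log2FC of 0.54 (SE 0.08, adjusted p = 0.000692). Ndufaf8, listed as 1810043H04Rik, an assembly partner of Ndufaf5, was at 4.79 ± 0.27 and 9.97 ± 2.79 CPM, a log2FC of 1.02 (SE 0.21, adjusted p = 0.00395). Of the complex II factors, Sdhaf3, listed as Acn9, had a log2FC of 0.64 (SE 0.23, adjusted p = 0.0426), and Sdhaf4, listed as 1110058L19Rik, at -0.41 (SE 0.25, adjusted p = 0.177). These genes were chosen after their values were seen.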
